A study of Mus musculus with 8 samples.

Results

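The kallikreins and serpins form the 2 sides of a proteolytic system, the kallikreins being serine proteases and the serpins mostly inhibitors of such proteases. They were taken here as the genes of the count table whose symbol begins with *Klk* and a number, or with *Serpin*, a letter from a to i and a number. This gave 88 of 27036 genes, made up of 27 kallikreins and 61 serpins. Their transcripts were measured by bulk RNA sequencing in 3 prostate tissues of WT mice, in 3 tissues with prostatic intraepithelial neoplasia (PIN) and in 2 prostate tumors (PCa). PIN and PCa tissue came from mice of the genotype *R26 mTmG/hAR:Osr1 Cre/+*. In these animals Cre recombinase switches on a human androgen receptor transgene (*hARtg*) and a green membrane reporter in cells whose lineage has expressed *Osr1*. The labels call the WT tissue normal, and the study's matched controls are *R26 mTmG/+:Osr1 Cre/+* animals, which share the Cre allele and the reporter but not *hARtg*. All mice were of mixed C57BL/6 and 129S1/SvImJ background, the lesions were identified under the microscope, and the labels do not give an age for any of these 8 samples.

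Tissue kallikreins are secreted proteases that cut other secreted proteins, and in people the best known of them is prostate-specific antigen, which androgen controls in prostate epithelium. Mice have no copy of that gene. They have instead a row of closely related *Klk1b* genes, whose products were first described as proteases of salivary gland, kidney and testis that process growth factors and vasoactive peptides. Serpins trap a protease by offering it a loop that is cut and then locks the enzyme in place. Some of them circulate or coat the extracellular matrix, clade B members act mostly inside cells, and a few, such as the collagen chaperone encoded by *Serpinh1*, inhibit no protease.

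The 15 genes of the *Klk1* subfamily lie side by side on chromosome 7 of mm9, within 284606 bases from 51200382 to 51484987. Their coding sequences share 74.6% to 95.2% of their bases, with a median of 86.0% over 105 pairs. A stretch of 60 coding bases is given for the 6 members described most, because it is by such differences that a read is given to one gene and not to its neighbor. Each window lies in the fourth coding exon on the plus strand of mm9 (GENCODE M1 annotation), and capitals mark the 30 positions at which the 6 genes are not all alike.
*Klk1b24*, chr7:51447137-51447196: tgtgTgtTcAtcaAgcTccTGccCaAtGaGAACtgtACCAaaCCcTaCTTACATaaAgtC
*Klk1b21*, chr7:51361265-51361324: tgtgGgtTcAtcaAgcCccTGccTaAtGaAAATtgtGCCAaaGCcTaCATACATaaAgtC
*Klk1b27*, chr7:51311398-51311457: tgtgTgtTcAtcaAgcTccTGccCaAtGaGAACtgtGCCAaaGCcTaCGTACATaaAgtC
*Klk1b8*, chr7:51209627-51209686: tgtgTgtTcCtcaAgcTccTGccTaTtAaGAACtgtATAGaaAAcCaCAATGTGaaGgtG
*Klk1b26*, chr7:51271652-51271711: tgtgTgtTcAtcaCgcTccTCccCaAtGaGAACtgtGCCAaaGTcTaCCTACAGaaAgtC
*Klk1b22*, chr7:51371602-51371661: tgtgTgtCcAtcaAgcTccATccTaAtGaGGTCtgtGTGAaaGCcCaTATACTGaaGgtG
Over this window *Klk1b24* differed from *Klk1b27* at 3 positions, from *Klk1b26* at 7, from *Klk1b21* at 8, from *Klk1b22* at 17 and from *Klk1b8* at 18. Across the whole coding sequence *Klk1b24* was 93.9% identical to *Klk1b21*, 93.6% to *Klk1b27* and 87.4% to *Klk1b22*. Of all stretches of 50 coding bases, 30.4% in *Klk1b24*, 30.8% in *Klk1b21* and 11.9% in *Klk1b22* also occurred in another gene. A read from such a stretch cannot be placed by its sequence alone, so the division of counts among these genes is uncertain.

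The promoters of the same genes resemble each other as well. RefSeq windows on GRCm38.p6 run from 250 bases before to 50 after the annotated start, and 77 of the 88 members have one. The *Klk1b24* window was 98.1% identical to that of *Klk1b21*, 90.2% to that of *Klk1b27*, 81.4% to that of *Klk1b22* and 79.8% to that of *Klk1b8*. The letters TTTAAA, a form of TATA box that reads the same on both strands, occurred in 13 of 14 *Klk1* subfamily windows (92.9%), in 16.7% of 60 serpin windows and in 13.2% of all 32851 windows. The more common form TATAAA, searched on both strands, occurred in 0 of the 14 and in 13.6% of all windows. The 80 bases that end at the TTTAAA are given for the same 6 genes, with that motif in capitals. For *Klk1b21* the motif starts 4 bases past the annotated start, so its window ends just before that start and holds no capitals.
*Klk1b24*, chr7:44188131-44188210: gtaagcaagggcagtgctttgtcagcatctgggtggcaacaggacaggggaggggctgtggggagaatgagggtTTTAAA
*Klk1b21*, chr7:44102212-44102291: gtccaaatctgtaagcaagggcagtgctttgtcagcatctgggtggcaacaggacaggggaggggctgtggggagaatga
*Klk1b27*, chr7:44052199-44052278: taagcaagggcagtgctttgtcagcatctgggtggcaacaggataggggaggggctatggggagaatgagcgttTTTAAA
*Klk1b8*, chr7:43950548-43950627: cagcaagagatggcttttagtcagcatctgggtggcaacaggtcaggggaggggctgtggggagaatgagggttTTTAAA
*Klk1b26*, chr7:44012578-44012657: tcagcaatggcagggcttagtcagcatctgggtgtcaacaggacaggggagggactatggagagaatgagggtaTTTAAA
*Klk1b22*, chr7:44112559-44112638: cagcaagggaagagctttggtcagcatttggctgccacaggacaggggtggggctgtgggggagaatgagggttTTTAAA
The motif counts describe letters in short windows, and the motifs were chosen with the sequences in view.

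The libraries held from 21751803 to 29730420 counts on genes. Values are given in CPM, the counts of a gene scaled to a common library size that was corrected by the trimmed mean of M-values (TMM). Levels of different genes are compared in TPM, which is also scaled by gene length. The *hARtg* transgene was not analysed here, since the counts are of mouse genes. As labelled, WT and PIN tissue expressed prostate luminal markers, with a summed level over 8 genes of 46751 to 88150 CPM. In the PCa libraries that sum was 2186 and 2242, with *Tgm4* and *Pbsn* called lower in both comparisons, while the keratin gene *Krt8* stood at 453 and 333. The 5 smooth muscle markers summed to 1911 to 5421 CPM in WT and PIN and to 41.2 and 17.9 in PCa, and all 5 were called lower in PCa. Markers of other tissues also differed within groups. The 6 seminal vesicle genes reached 15663 CPM in WT 1 against 0.634 and 0.769 in WT 2 and WT 3, 43.9 to 88.7 in PIN, and 3840 and 883 in PCa, and 7 leukocyte genes reached 186 CPM in PCa 1 against 17.0 to 51.7 elsewhere. Of the tested genes, 0 of 6 seminal vesicle genes and 1 of 5 leukocyte genes (*S100a8*, higher in PCa) were called. Sample descriptions carry numbers of 3 series, in which WT 1 stands alone, WT 2 and WT 3 share the next, and all PIN and PCa libraries share the last. If a series is a batch, its effect cannot be told apart from that of the condition in either comparison with WT, whereas PCa against PIN lies within 1 series.

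Of the 88 members, 25 exceeded 1 CPM in at least 2 libraries and so passed the filter on low counts (5 kallikreins and 20 serpins, among 14034 genes tested). The other 63 were not tested. Of these, 11 had no count in any library and a further 36 never exceeded 10 counts. Another 7 were above 1 CPM in a single library, which was PCa 1 for *Klk1b22*, *Klk1b5*, *Klk6*, *Klk7* and *Serpinb9b* and PCa 2 for *Klk1b16* and *Serpinc1*. PCa 1 held the highest count of 30 of the 63. To be called, a member needed both an adjusted p under 0.05 over all tested genes (edgeR's quasi-likelihood test, Benjamini-Hochberg adjusted) and a log2 fold change of more than 1 in size.

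The *Klk1* subfamily was almost silent in WT prostate and was counted in every PIN and PCa library. Its summed counts were 7, 0 and 0 in WT 1 to 3, 1492, 34 and 987 in PIN 1 to 3, and 2321 and 278 in PCa 1 and 2. On the CPM scale this was at most 0.346 in WT, 53.7, 1.17 and 37.2 in PIN, and 74.7 and 9.53 in PCa. PIN 1, PIN 3 and PCa 1 thus stood far above the rest, and PIN 2 stood closest to WT. A bulk sample gives a mean over its cells, so that more expressing cells and more RNA per cell cannot be told apart, here or for any gene below.

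**Figure D1:**
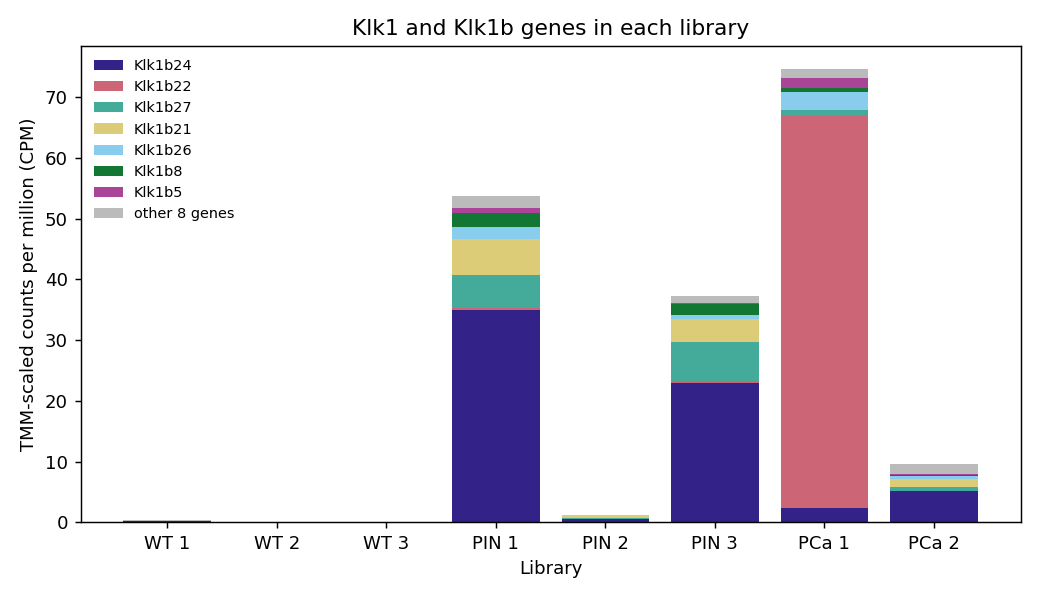
Summed level of the 15 *Klk1* and *Klk1b* genes in each library, in TMM-scaled CPM, with 7 genes in color and the other 8 pooled in gray; each bar is 1 library and has no error. The bars of WT 1 to 3 are at or near 0, *Klk1b24* makes up most of PIN 1 and PIN 3, and *Klk1b22* makes up most of PCa 1.

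*Klk1b24* (chr7:51443606-51447822, plus strand) encodes a glandular kallikrein and was the leading member in PIN. It had 0.148, 0 and 0 CPM in WT, 34.9, 0.482 and 22.9 in PIN, and 2.35 and 5.21 in PCa. Every PIN and PCa library lay above every WT library, and PIN 2 lay lowest among them. The 1592 counts in PIN against 3 in WT gave a ratio of 443 after scaling, with a 95% counting interval of 151 to 2151. Such intervals pool the counts of a group and cover counting error only, not the spread between libraries. All 3 of the WT counts were in WT 1. The log2 fold change was 8.62 (SE 1.85), and the gene did not pass in PIN against WT (adjusted p = 1, edgeR's quasi-likelihood test, Benjamini-Hochberg adjusted). Without PIN 1 the log2 fold change was 7.86. In PCa against WT the ratio was 86.7 (29.3 to 423) and the log2 fold change 6.26 (SE 1.81), which also missed the threshold (adjusted p = 0.0720 from the same edgeR test) and was 9.70 without WT 1 and 5.60 without PCa 2.

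The 4 other tested kallikreins, *Klk1b21*, *Klk1b27*, *Klk1b26* and *Klk1b8*, had no count in any WT library. *Klk1b27* had 5.44, 0.172 and 6.40 CPM in PIN and 0.933 and 0.549 in PCa. *Klk1b21* had 5.98, 0.482 and 3.84 CPM in PIN and 0.0965 and 1.41 in PCa. *Klk1b26*, an EGF-binding and prorenin-converting kallikrein, had 2.02, 0 and 0.678 CPM in PIN and 2.83 and 0.514 in PCa. As for *Klk1b24*, PIN 1 and PIN 3 were the high PIN libraries for all of these genes. *Klk1b8* had 2.27, 0.0344 and 1.66 CPM in PIN and 0.740 and 0.137 in PCa. Against a floor of 3 counts over the WT group, the mean in PIN was at least 90.7-fold higher for *Klk1b27*, 78.5-fold for *Klk1b21*, 30.1-fold for *Klk1b8* and 20.6-fold for *Klk1b26*. In PCa the bounds were 17.3-fold, 16.9-fold, 10.4-fold and 39.7-fold. Without PIN 1 the PIN bounds of *Klk1b21*, *Klk1b8* and *Klk1b26* were 48.4-fold, 18.8-fold and 7.52-fold. Without PCa 1 the PCa bounds of *Klk1b8* and *Klk1b26* were 3.18-fold and 11.9-fold, and that of *Klk1b21* was 32.6-fold. The PCa bound of *Klk1b21* rested on PCa 2, since PCa 1 held only 3 of its counts, too few for a bound. None of the 4 passed in PIN against WT (adjusted p = 1 for each) or in PCa against WT (adjusted p = 0.0964, 0.103, 0.156 and 0.110 for *Klk1b27*, *Klk1b21*, *Klk1b8* and *Klk1b26*, edgeR's quasi-likelihood test, Benjamini-Hochberg adjusted).

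Between PIN and WT, 0 of the 25 tested members were called, as were 0% of all tested genes. An unadjusted p under 0.05 in the same edgeR test was found for 6 members, namely the 5 kallikreins and *Serpine2*, and for 3.51% of all tested genes. The kallikreins passed the filter on low counts through PIN and PCa libraries alone, so their absence from WT is partly a condition of their being tested. Every PIN library exceeded every WT library for 5 members, 4 kallikreins and *Serpinb5*, against 6.48% of all tested genes, and all lay below WT for *Serpinb1a*, against 6.38%. The median log2 fold change in PIN against WT was 8.62 over the 5 kallikreins, or 6.29 with genes absent from WT set at their bound, 0.03 over the 20 serpins and -0.02 over all tested genes. DESeq2, run on the same counts, called *Klk1b21*, *Klk1b24* and *Klk1b27* higher in PIN (3 of 25, against 0.278% of all tested genes), and limma-trend called 0 (0%).

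The tested kallikreins were lower in PCa than in PIN at the median (log2 fold change -2.19, against 0.07 over all tested genes), and their groups overlapped. *Klk1b26* differed in sign from the other 4, with a log2 fold change of 0.90 in PCa against PIN. That sign rested on PCa 1, with 2.83 CPM, since PCa 2 had 0.514 against a mean of 0.898 in PIN. For *Klk1b24* the log2 fold change in PCa against PIN was -2.36 (SE 1.49, adjusted p = 0.389, edgeR's quasi-likelihood test, Benjamini-Hochberg adjusted), and it was -1.61 without PIN 1 and -3.02 without PCa 2. With a replicate block it was -0.32. None of the 5 was called (5.72% of all tested genes were) or had an unadjusted p under 0.05 in that comparison with edgeR (22.8% of all tested genes had one), and 0 were called with DESeq2 (14.1% of all tested genes) or limma-trend (7.13%). In PCa against WT, 0 of the 5 were called with edgeR (8.54% of all tested genes) or limma-trend (9.43%) and 5 with DESeq2 (17.7%), and all 5 had an unadjusted p under 0.05 with edgeR, as did 27.5% of all tested genes. *Klk1b24* was called in that comparison with edgeR's newer quasi-likelihood method (adjusted p = 0.0391) and, with *Klk1b27*, without PIN 2 (adjusted p = 0.0317 and 0.0345), and *Klk1b21* was called without PCa 1 (adjusted p = 0.0455 in the same edgeR test).

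The make-up of the subfamily also differed between libraries. *Klk1b24* took 64.9% of the subfamily's counts in PIN 1 (Wilson 95% interval 62.5% to 67.3%), 61.7% in PIN 3 (58.6% to 64.7%) and 54.7% in PCa 2 (48.8% to 60.4%). With 34 counts in all, its share in PIN 2 was 41.2% (26.4% to 57.8%). In PCa 1 it took 3.15% (2.51% to 3.94%), and *Klk1b22*, the EGF-binding protein type A, took 86.4% (85.0% to 87.8%). These intervals cover counting error only. *Klk1b22* had 2006 counts in PCa 1, 9 in each of PIN 1 and PIN 3, 1 in WT 1 and 0 in the other libraries, so PCa 1 alone set its mean of 36.3 TPM, the highest of any kallikrein. A count of 0 among 278 in PCa 2 allows a share of up to 1.08% by a floor of 3 counts, and up to 1.36% by the Wilson interval. The remaining 9 genes of the subfamily were low throughout. *Klk1b5* had 53 counts in PCa 1 and 23 in PIN 1, *Klk1b16* 28 in PCa 2 and 16 in PIN 1, and *Klk1b3*, the gamma subunit of nerve growth factor, 17 in PIN 1. *Klk1*, the tissue kallikrein after which the group is named, never exceeded 4 counts, and the pseudogene *Klk1b7-ps* had none.

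The other 12 kallikreins, *Klk4* to *Klk15*, had at most 12 counts in any WT or PIN library and at most 56 in PCa, and none was tested. *Klk4*, which in people is a prostate protease, had 0 counts in all 8 libraries. *Klk7* and *Klk5*, proteases of shedding skin, had 56 and 10 counts in PCa 1 and at most 1 in any other library. *Klk6* likewise had 31 counts in PCa 1 and at most 1 elsewhere. The 10 squamous epithelium markers summed to 55.7 and 57.9 CPM in PCa 1 and PCa 2, within the 7.91 to 200.2 CPM of WT, where 1 gene in 1 library, *Sprr1a* in WT 2, held 195 CPM. Other genes of the list went the other way, such as *Krt6a*, with 17.6 and 3.39 CPM in PCa against a WT maximum of 0.0453, and *Krt4*, with 22.4 and 8.95 CPM against 4.99. Over the 6 tested, the median log2 fold change in PCa against WT was 2.52 and 1 was called higher, and their part in these counts was not tested. *Klk8*, or neuropsin, was the only one counted in every library, with 12, 3 and 6 counts in WT, 3, 12 and 4 in PIN and 22 and 16 in PCa. *Klk15* had 6 and 7 counts in PIN 1 and PIN 3 and 0 elsewhere, which places it in the same 2 PIN libraries as the *Klk1b* genes. *Klk14* had 7 counts at most, *Klk10* 4, *Klk11* and *Klk13* 2, and *Klk9* and *Klk12* 1. At this depth, 3 counts correspond to 0.0965 to 0.148 CPM.

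Among the serpins, *Serpine2* had the highest mean level over the 8 libraries. It lies at chr1:79790772-79855271 on the minus strand and encodes protease nexin-1, a matrix-bound inhibitor of thrombin and urokinase. Its mean was 495 TPM, against 137 for *Serpinb1a*, 114 for *Serping1*, 86.6 for *Serpinb6a*, 51.6 for *Serpinb9* and 46.6 for *Serpinh1*. Within WT the order was not the same, with 200.1, 179.7 and 260.2 TPM for *Serpine2* against 107, 529 and 135 for *Serpinb1a*, which was the higher of the pair in WT 2 alone. The mean of *Serpinb9* was set by PCa 1, with 313 TPM there and at most 27.9 in any other library. *Serpine2* had 241, 276 and 294 CPM in WT, 1162, 278 and 669 in PIN, and 600 and 830 in PCa. PIN 1, PIN 3 and both PCa libraries exceeded all WT libraries, while PIN 2 fell within the WT range. The log2 fold change was 1.38 (SE 0.48) in PIN against WT, with an adjusted p of 1, and 1.40 (SE 0.52) in PCa against WT, with an adjusted p of 0.132 (edgeR's quasi-likelihood test, Benjamini-Hochberg adjusted). DESeq2 called it higher in PCa against WT (adjusted p = 0.0436). Its share of all serpin counts was 25.1% to 44.9% in WT, 71.2%, 39.9% and 62.1% in PIN, and 38.2% and 73.3% in PCa. PIN 2 was therefore the PIN library closest to WT for *Serpine2* as for the *Klk1* subfamily.

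*Serpini1*, or neuroserpin, an inhibitor of tissue plasminogen activator, had 3.96, 21.3 and 1.76 CPM in WT, 2.30, 10.3 and 5.91 in PIN, and 0.805 and 0.720 in PCa. Both PCa values lay below all others. Its log2 fold change in PCa was -3.56 (SE 1.21, adjusted p = 0.107) against WT and -3.01 (SE 1.18, adjusted p = 0.183) against PIN in edgeR's quasi-likelihood test. Without WT 2 the value against WT was -1.90, without PIN 2 the value against PIN was -2.42, and DESeq2 called the gene lower in both comparisons.

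*Serpinh1* (chr7:106493885-106501740, minus strand) encodes Hsp47, the chaperone of collagen in the endoplasmic reticulum, and fell in PCa. It had 64.7, 33.9 and 38.3 CPM in WT, 37.5, 29.2 and 44.3 in PIN, and 17.8 and 11.5 in PCa. Both PCa libraries lay below all WT and PIN libraries. Against WT the log2 fold change was -1.64 (SE 0.38, adjusted p = 0.0388), and against PIN it was -1.34 (SE 0.37, adjusted p = 0.0792), which missed the threshold (edgeR's quasi-likelihood test, Benjamini-Hochberg adjusted). The call against WT was lost without WT 1, WT 3, PIN 1, PIN 2, PIN 3 or PCa 2, with adjusted p-values up to 0.107, and was kept without WT 2 or PCa 1. It was also lost with upper-quartile normalization (adjusted p = 0.0540) and with only the 2 groups compared (adjusted p = 0.128, both in edgeR), as it was with a replicate block. The difference from PIN was called without PCa 1 and, on all libraries, with DESeq2. The summed level of the 5 fibroblast markers, which include collagen genes, was 473 to 788 CPM in WT, 664 to 759 in PIN, and 610 and 261 in PCa, and 0 of the 5 were called. Smooth muscle markers fell in the same 2 libraries, as given above. The part of either tissue in the fall of *Serpinh1* was not tested.

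*Serping1* and *Serpinf1*, which encode C1 inhibitor and the anti-angiogenic PEDF, are serpins of stroma and plasma, and both separated the PCa libraries from each other. *Serping1* had 145, 70.1 and 63.8 CPM in WT, 81.6, 105 and 88.4 in PIN, and 79.1 and 6.62 in PCa. *Serpinf1* had 20.9, 6.21 and 11.9 CPM in WT, 12.1, 11.8 and 12.5 in PIN, and 15.0 and 0.651 in PCa. PCa 1 fell within the WT range for both, and PCa 2 lay far below it. For *Serping1* the log2 fold change in PCa against WT was -1.12 (SE 0.86, adjusted p = 0.447, edgeR's quasi-likelihood test, Benjamini-Hochberg adjusted). With 1 library left out, the log2 fold change of *Serping1* in PCa against WT ran from -3.80, without PCa 1, to -0.22. Of the 5 fibroblast markers, *Pdgfra*, *Lum*, *Dcn* and *Col1a2* were also lowest in PCa 2, at 3.09, 0.549, 206 and 22.4 CPM against at least 20.8, 13.3, 287 and 31.2 in the WT and PIN libraries. The remaining one, *Col1a1*, was not, with 29.4 CPM in PCa 2 and 12.6 in WT 2. Their part in the levels of *Serping1* and *Serpinf1* was not tested. The liver-derived members of these clades, *Serpinc1*, *Serpind1* and *Serpinf2*, which encode antithrombin, heparin cofactor II and α2-antiplasmin, never exceeded 27, 2 and 10 counts, and *Serpini2* never exceeded 8.

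**Figure D2:**
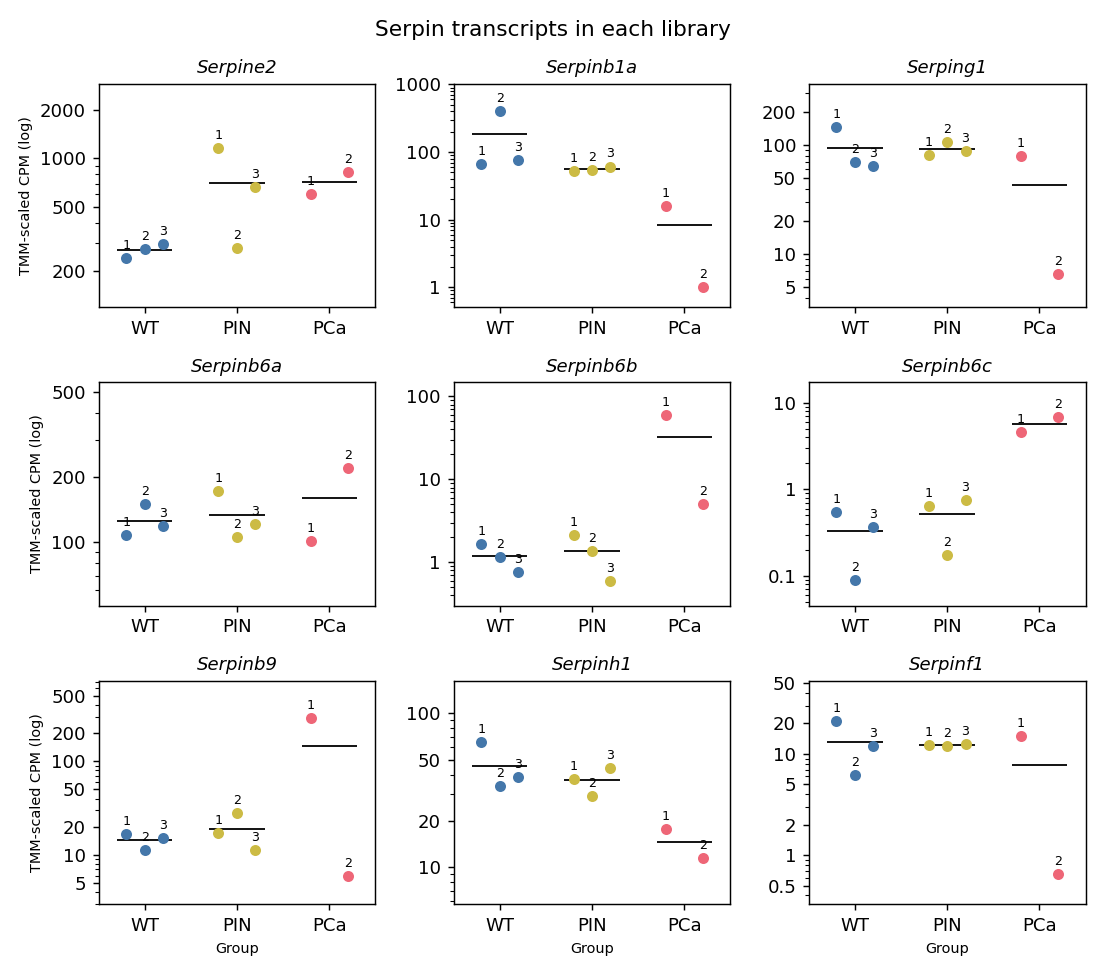
TMM-scaled CPM of 9 serpin genes, on logarithmic axes that do not start at 0 and differ between panels; points are libraries with their replicate numbers, and lines are arithmetic group means. Both PCa libraries lie above all others for *Serpinb6b* and *Serpinb6c* and below all others for *Serpinh1* and *Serpinb1a*, and they lie far apart for *Serpinb9*, *Serping1* and *Serpinf1*.

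Clade B serpins act mainly inside cells, and the mouse has 27 of them in the table, 15 in a cluster on chromosome 13 and 12 in a cluster on chromosome 1. Of these, 8 were tested. The members called higher in PCa, *Serpinb6b* and *Serpinb6c*, both belong to the chromosome 13 cluster, in which *Serpinb6a* is their close relative. *Serpinb6b* (chr13:33057078-33070936, plus strand) had 1.68, 1.18 and 0.769 CPM in WT, 2.12, 1.38 and 0.603 in PIN, and 59.1 and 5.01 in PCa. *Serpinb6c* (chr13:33971685-33997577, minus strand) had 0.544, 0.0906 and 0.366 CPM in WT, 0.648, 0.172 and 0.753 in PIN, and 4.63 and 6.89 in PCa. For both genes every WT and PIN library lay below both PCa libraries. *Serpinb6b* in PCa 1 was 11.8 times the level in PCa 2, while *Serpinb6c* was higher in PCa 2. *Serpinb6a*, an inhibitor of cathepsin G and other granule proteases and by far the most abundant of the 3, had 109, 150.5 and 119 CPM in WT, 173, 106 and 121 in PIN, and 101 and 221 in PCa, with PCa 1 below all other libraries and PCa 2 above them.

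The log2 fold change of *Serpinb6b* was 4.73 (SE 1.00, 26.5-fold, adjusted p = 0.0307) in PCa against WT and 4.54 (SE 0.99, 23.3-fold, adjusted p = 0.0421) in PCa against PIN (edgeR's quasi-likelihood test, Benjamini-Hochberg adjusted). For *Serpinb6c* it was 4.10 (SE 0.86, 17.1-fold, adjusted p = 0.0298) against WT, and against PIN it was 3.45 (SE 0.83, adjusted p = 0.0534), just outside the threshold. DESeq2, edgeR's newer quasi-likelihood method and limma-trend called it against PIN, as did edgeR without WT 2. *Serpinb6c* passed the filter on low counts only through the PCa libraries, so that a difference was a condition of its being tested. These calls depended on single libraries and on the fit. With only the 2 groups compared, both were lost against WT (adjusted p = 0.104 for *Serpinb6b* and 0.0938 for *Serpinb6c* in edgeR), and limma-trend did not call *Serpinb6b* (adjusted p = 0.0546). Neither gene was called against WT or PIN with a replicate block. The edgeR call of *Serpinb6b* against WT and against PIN was kept without PCa 2 and lost without any of the 7 other libraries, and without PCa 1 its log2 fold change against WT was 2.06. That of *Serpinb6c* was kept without WT 2 or PIN 2 and lost without WT 1, WT 3, PIN 1 or PIN 3, and the gene failed the filter without either PCa library. Adjusted p-values with 1 library left out ran from 0.00549 to 0.109 for *Serpinb6b* and from 0.0385 to 0.0999 for *Serpinb6c* against WT in the same edgeR test. Of stretches of 50 coding bases, 4.79% in *Serpinb6b*, 8.81% in *Serpinb6c* and 2.52% in *Serpinb6a* occurred in another gene.

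*Serpinb9* is the mouse counterpart of the granzyme B inhibitor of lymphocytes. It had 16.9, 11.2 and 15.0 CPM in WT, 17.0, 27.9 and 11.3 in PIN, and 286 and 5.93 in PCa. PCa 1 stood at 48.3 times PCa 2, which itself was the lowest of the 8 libraries. The log2 fold change of 3.35 against WT (SE 1.16, adjusted p = 0.113) and of 2.96 against PIN (SE 1.15, adjusted p = 0.180, edgeR's quasi-likelihood test, Benjamini-Hochberg adjusted) therefore rested on PCa 1, and without that library it was -1.26 and -1.65. Without PCa 2 it was called higher in both comparisons, as it was with DESeq2 on all libraries. The 7 leukocyte markers summed to 186 CPM in PCa 1 and 19.6 in PCa 2, against 17.0 to 51.7 in WT and PIN. Their part in the level of *Serpinb9* was not tested. Granzyme B itself, *Gzmb*, had 0.933 CPM in PCa 1 and 0.0686 in PCa 2, and at most 3.38 in the other libraries.

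*Serpinb1a*, an inhibitor of neutrophil elastase and cathepsin G, ran the other way. It had 65.7, 412 and 77.4 CPM in WT, 52.6, 54.0 and 61.3 in PIN, and 15.8 and 1.03 in PCa. The 3 groups did not overlap, with WT highest and PCa lowest. Its fitted log2 fold change was -1.73 (SE 0.99, adjusted p = 1) in PIN against WT and -4.46 (SE 1.32, adjusted p = 0.0773) in PCa against WT, neither of which was called (edgeR's quasi-likelihood test, Benjamini-Hochberg adjusted). WT 2 was more than 5 times the other WT libraries, and without it the log2 fold change in PIN against WT was -0.35. With 1 library left out, the log2 fold change in PCa against WT ran from -7.47, without PCa 1, to -3.09. DESeq2 and limma-trend called the fall in PCa against WT on all libraries. Of the protease targets, *Elane* and *Ctsg* had at most 0.0989 CPM in any library.

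On chromosome 1, *Serpinb5*, or maspin, a non-inhibitory serpin of basal epithelium, had 8.01, 9.65 and 12.1 CPM in WT, 27.8, 12.2 and 13.98 in PIN, and 39.0 and 2.74 in PCa. All PIN libraries were above WT, and PCa 1 and PCa 2 were the highest and the lowest of the 8. It was called lower against PIN without PCa 1 and higher against WT without PCa 2. The 4 basal markers summed to 167 to 216 CPM in WT, 363, 178 and 387 in PIN, and 604 and 27.4 in PCa, thus also highest in PCa 1 and lowest in PCa 2, and 0 of the 4 were called. Their part in the level of *Serpinb5* was not tested. *Serpinb11* had 0.643, 0.317 and 0.0366 CPM in WT, 0.252, 0 and 0.113 in PIN, and 6.73 and 1.10 in PCa. Both PCa libraries exceeded all others, and the gene passed the filter through them alone. Its log2 fold change was 3.57 (SE 1.35, adjusted p = 0.138) against WT and 4.96 (SE 1.44, adjusted p = 0.0894) against PIN (edgeR's quasi-likelihood test, Benjamini-Hochberg adjusted). DESeq2 and edgeR's newer quasi-likelihood method called it higher against PIN. *Serpinb8* ranged from 4.34 CPM in PCa 1 to 101 in WT 2, and its groups overlapped. *Serpinb2*, an inhibitor of urokinase, had 16 counts in WT 2, 10 in PCa 2 and at most 6 elsewhere.

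**Figure D3:**
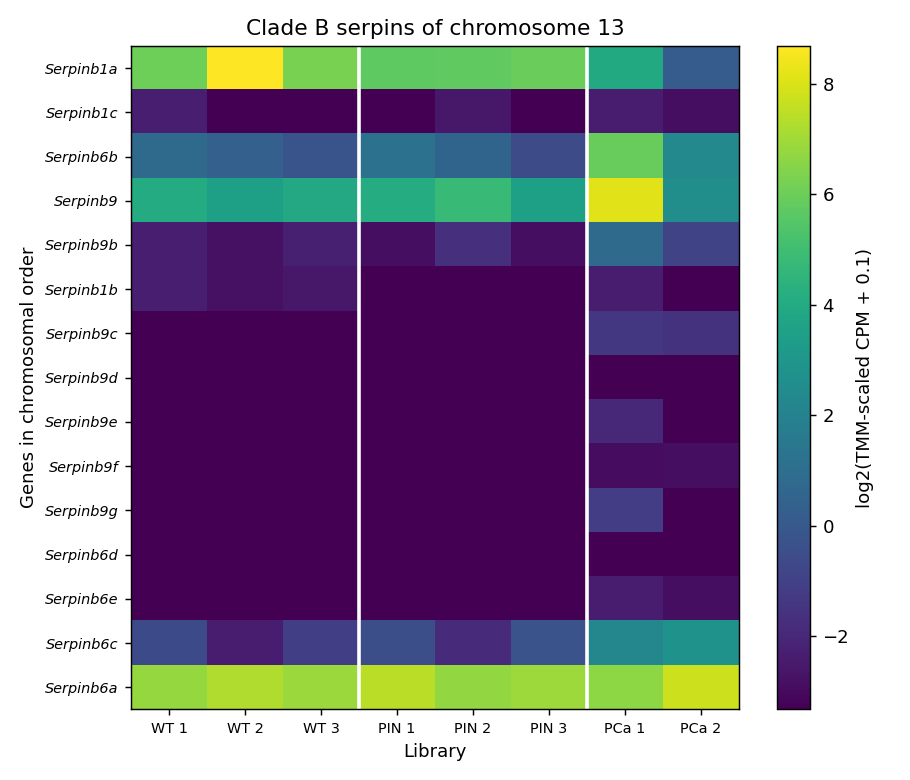
Level of the 15 clade B serpins of chromosome 13 in each library, as log2 of TMM-scaled CPM plus 0.1, with genes in chromosomal order and white lines between WT, PIN and PCa; each cell is 1 library. *Serpinb6a* is bright throughout, *Serpinb1a* darkens in PCa, *Serpinb6b* and *Serpinb9* are brightest in PCa 1, and *Serpinb9c*, *Serpinb9e*, *Serpinb9f*, *Serpinb9g* and *Serpinb6e* show counts in PCa libraries alone.

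Clade A holds the secreted serpins, many of them plasma proteins, and 6 of its 23 members were tested. *Serpina1f*, of the α1-antitrypsin group, had 1.38, 0 and 0 CPM in WT, 0.0360, 0.0344 and 0.0377 in PIN, and 290.7 and 0.0343 in PCa. A single library, PCa 1, therefore held nearly all of its counts, 9034 against 1 in PCa 2, and WT 1 was the only other above 1 CPM. Its log2 fold change was 8.36 (SE 2.61, adjusted p = 0.0875) against WT and 11.80 (SE 3.16, adjusted p = 0.0718) against PIN (edgeR's quasi-likelihood test, Benjamini-Hochberg adjusted). The ratio to 3 counts in PIN was 4168, with a 95% counting interval of 1426 to 20213. That interval covers counting error only and leaves out the spread between the 2 PCa libraries. WT 1 and PCa 1 were also the libraries with the highest summed seminal vesicle markers, at 15663 and 3840 CPM, and the part of that tissue in the level of *Serpina1f* was not tested. Without PCa 1 or WT 1 the gene failed the filter, and without PCa 2 it was called in both comparisons, with log2 fold changes of 9.40 and 12.82. With all libraries, DESeq2 and edgeR's newer quasi-likelihood method called it higher in both comparisons. The *Serpina1a* to *Serpina1e* genes, which encode α1-antitrypsin of liver, had at most 22 counts. The 5 hepatocyte markers summed to 23.1 CPM in PCa 1 and to at most 0.446 in any other library, with *Alb* itself at 0.837 CPM in PCa 1, and their part in the levels of clade A genes was not tested.

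*Serpina3n* is the main mouse relative of α1-antichymotrypsin and rises in the acute phase. It had 9.99, 2.13 and 1.68 CPM in WT, 15.3, 15.4 and 6.93 in PIN, and 28.7 and 1.54 in PCa. PIN 1, PIN 2 and PCa 1 exceeded all WT libraries, PIN 3 did not, and PCa 2 was the lowest of all. The neighboring *Serpina3c*, *Serpina3f* and *Serpina3g* were lower, with 94 counts or fewer in every library, and they too were counted in PCa 1 (78, 70 and 94 counts) and hardly in PCa 2 (0, 0 and 6 counts). The other *Serpina3* genes had at most 22 counts. *Serpina5*, the protein C inhibitor, a serpin of seminal plasma in people, had 7.51, 0.408 and 0.329 CPM in WT, 0.144, 24.04 and 0.0753 in PIN and 0 in both PCa libraries. PIN 2 held most of its counts. Its mean in PCa was at least 49.0-fold lower than in WT and at least 169.6-fold lower than in PIN, against a floor of 3 counts over the PCa group. These bounds rested on single libraries, since WT 1 held 152 of the 170 counts in WT and PIN 2 held 698 of the 704 in PIN, and without these libraries they were 7.32-fold and 2.22-fold. The gene was not called in PCa against WT (adjusted p = 0.234, edgeR's quasi-likelihood test, Benjamini-Hochberg adjusted).

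In PCa against WT, 3 of the 25 tested members (12%) were called, against 8.54% of all tested genes, and 1 of the 3, *Serpinb6c*, was tested only through the PCa libraries in which it was high. *Serpinb6b* and *Serpinb6c* were called higher, as were 4.35% of all tested genes, and *Serpinh1* lower, as were 4.18%. The groups did not overlap for 10 members that were higher in PCa, against 17.7% of all tested genes, and for 4 that were lower, against 19.6%. Of these 10, 7 had no WT library above 1 CPM, so that they passed the filter on low counts through the libraries in which they were high and their difference was partly a condition of being tested. This also bears on the medians. The median log2 fold change was 1.40 over the 25 members, 1.12 over the 20 serpins and 0.01 over all tested genes. By clade, it was 1.44 in clade A, 2.21 in clade B and -0.93 in clades C to I. In PCa against PIN, 1 of the 25 (4%) was called, against 5.72% of all tested genes. That gene, *Serpinb6b*, was higher in PCa, a call that 2.55% of all tested genes shared, and 0 members were called lower, against 3.17%. There 4 members were higher without overlap, against 21.1%, and 5 lower, against 23.2%, and the median was 0.22 over the members and 0.07 over all tested genes. The comparisons share libraries, so these counts are not independent of each other. With DESeq2, 14 of the 25 members were called when PCa was compared with WT (17.7% of all tested genes were) and 9 when it was compared with PIN (14.1%).

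**Figure D4:**
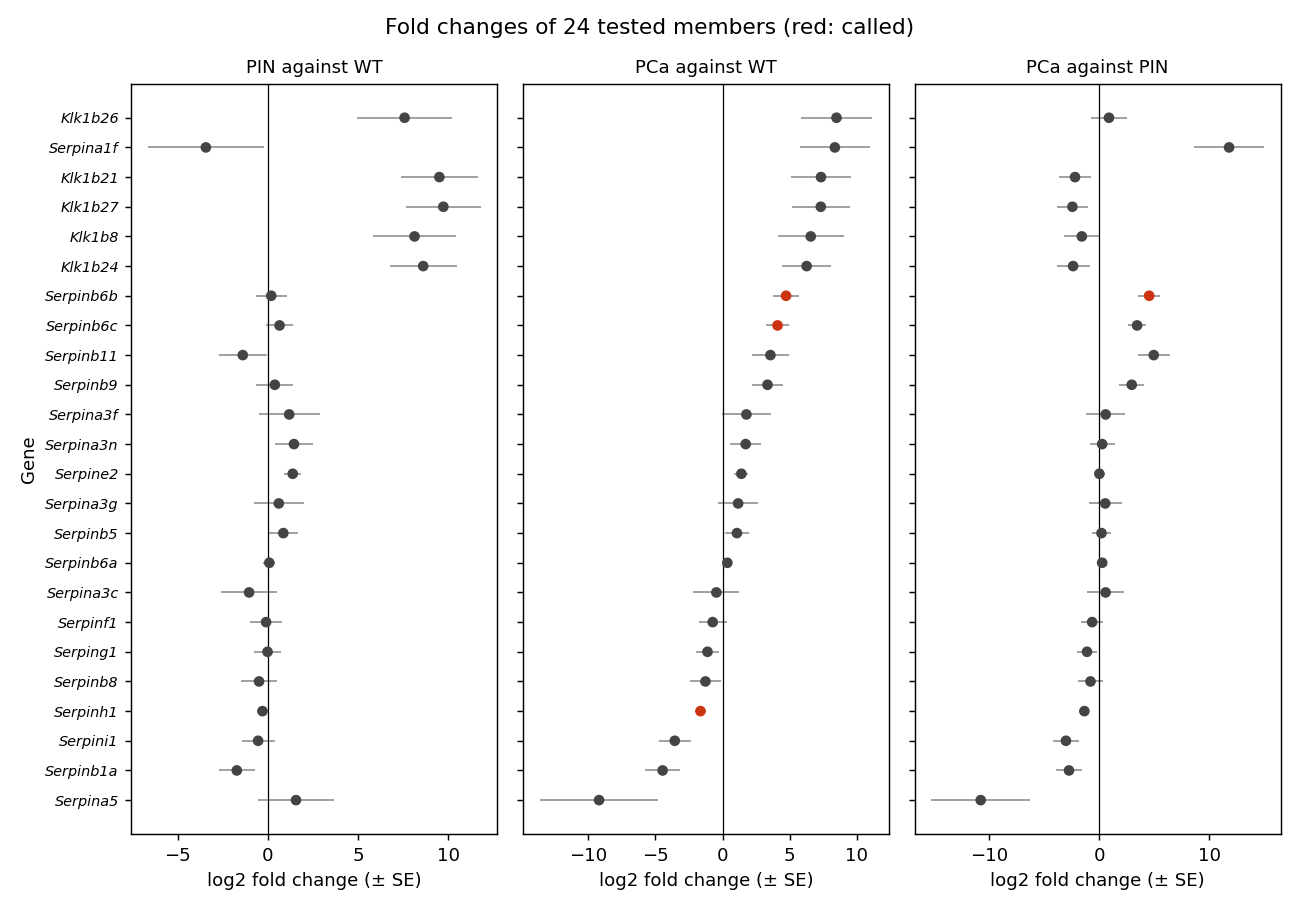
Fitted log2 fold changes of 24 of the 25 tested members in the 3 comparisons, with bars of 1 SE, ordered by PCa against WT; red points were called. For the *Klk1b* genes, which have 3 counts or none in WT, and for *Serpina5*, which has none in PCa, the position depends on the small constant used in fitting. The *Klk1b* genes lie far right of 0 against WT and between -2.42 and 0.90 in PCa against PIN, and only *Serpinb6b* is red in PCa against PIN.

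The 2 tumors were also set side by side. Of the 20 tested serpins, 15 were higher in PCa 1 and 4 in PCa 2, against 50.3% and 49.6% of all tested genes, and *Serpina5* was at 0 in both. The level in PCa 1 was more than 5 times that in PCa 2 for 12 genes, and the reverse held for 1, *Serpinb8*, against 13.2% and 3.86% of all tested genes. PCa 1 was the highest of the 8 libraries for 9 of the 20, and PCa 2 was the lowest for 10, against 2805 and 3516 of all 14034 tested genes. For 9 of the 20, neither PCa library fell within the WT range and both lay to the same side of it, against 37.3% of all tested genes. The genes in which the tumors lay within 2 times of each other included *Serpinb6c*, *Serpine2*, *Serpinh1* and *Serpini1*, and of these *Serpinb6c* and *Serpinh1* were called against WT.

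Proteases that serpins act on, other inhibitors, and receptors, cofactors and precursors of the same network were followed in a list of 40 genes, of which 39 were in the table and 24 were tested. In each of the 3 comparisons 0 of the 24 were called with edgeR, against 0% of all tested genes in PIN against WT and 8.54% and 5.72% when PCa was compared with WT and with PIN. An unadjusted p under 0.05 was found for 3 in PIN against WT, 5 in PCa against WT and 3 between PCa and PIN, against 3.51%, 27.5% and 22.8% of all tested genes. DESeq2 called 0, 2 and 2 of them (0.278%, 17.7% and 14.1% of all tested genes), and limma-trend 0, 1 and 0 (0%, 9.43% and 7.13%). The median log2 fold change of the list was 0.00 in PIN against WT, 0.38 in PCa against WT and 0.84 for PCa with PIN as reference. Urokinase, *Plau*, a target of *Serpine2*, had 51.9, 6.03 and 5.31 CPM in WT, 9.14, 9.64 and 8.40 in PIN, and 30.4 and 8.81 in PCa, with overlapping groups. *Tmprss2*, a membrane protease of luminal cells under androgen control, had 512, 873 and 658 CPM in WT, 405, 702 and 753 in PIN, and 227 and 44.4 in PCa, with both PCa libraries below all others. The plasma enzymes *Plg*, *F2* and *Klkb1* had at most 0.148 CPM in any library.

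Among the other inhibitors, *Spink11*, a secreted inhibitor of the Kazal type, was distributed over the PIN libraries as the *Klk1b* genes were. It had 0.544, 0 and 0 CPM in WT, 80.5, 2.79 and 34.7 in PIN, and 26.4 and 0 in PCa. *Spink5*, whose product inhibits skin kallikreins, had 636, 0 and 0.256 CPM in WT, 651, 3.34 and 82.7 in PIN, and 2334 and 2.47 in PCa. Both were thus high in PIN 1, PIN 3 and PCa 1 and low in PIN 2 and PCa 2, but *Spink5* was also high in WT 1, where the *Klk1* subfamily had 7 counts. *Msmb*, a secretory product of the prostate, showed 404, 0.272 and 1.57 CPM in WT and 2277, 19.1 and 165 in PIN, again with PIN 2 lowest of the PIN libraries, and 13.1 and 2.54 in PCa. These inhibitors and *Msmb* were picked out after their values were seen, and no likeness between genes was tested.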

How the data were processed

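RNA from 8 prostate tissues (3 WT, 3 PIN, 2 PCa), which the labels number as replicates without naming the animal, had been sequenced after removal of ribosomal RNA. Per the labels and the study's methods, the authors trimmed reads with cutadapt 1.9.1, aligned them to mm9 with HISAT2 2.1.0 and counted them per gene with HTSeq 0.6.1, and the deposited values are raw counts. The deposited table also gives the summed exon length of each gene, an other value that belongs to no sample and was used here for TPM alone. The annotation release and the strand setting of the counting are not given in the sources used here, so reads of overlapping or antisense genes cannot be told apart, and reads of near-identical copies (*Klk1b*, *Serpina1a* to *Serpina1e*, *Serpina3* and *Serpinb9d* to *Serpinb9g*) may be split or lost.

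Genes that exceeded 1 CPM in 2 or more libraries were fitted in R 4.3.3 with edgeR 4.0.16 (TMM, legacy quasi-likelihood F-test) in 1 model of 3 groups with 5 residual degrees of freedom and a common biological coefficient of variation of 0.489. Benjamini-Hochberg adjustment ran over all tested genes of a comparison. The filter, the kind of test and the thresholds follow the study's methods. Those methods name normalized values as the input of the test and keep only results that hold with TMM and upper-quartile normalization alike, whereas here raw counts with TMM factors were tested and upper-quartile normalization was an alternative. SEs were derived from the F statistic. Bounds used 3 counts over a group (repeated without single libraries, an alternative chosen after seeing the data), and shares a 95% Wilson interval. Alternatives were DESeq2 1.42.0, upper-quartile normalization, no filter, filterByExpr, only the 2 groups compared, a replicate block, the newer quasi-likelihood method, limma-trend (3.58.1, prior count 2) and leaving out each library. Sequences were aligned with mafft 7.526. Coding sequences are from GENCODE M1 on NCBIM37 (mm9), promoters from RefSeq on GRCm38.p6.

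Members and lists were chosen with earlier results of these data known. Genes were named if they were among the 8 highest by mean TPM of each family, were called, were among the 5 with the lowest p in PIN against WT, or have a known role in prostate or in extracellular proteolysis. The p-values measure the spread between these libraries. A tested member is counted in the totals and not reported here by name.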

Additional observations from a re-analysis of the deposited data

How the results depend on the processing

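In PIN against WT, 0 members were called (6 of 25 had an unadjusted p under 0.05 with edgeR), and the count stayed at 0 under each alternative other than DESeq2, with which it was 3. Against WT the count of 3 in PCa became 14 with DESeq2 (17.7% of all tested genes), 5 with the newer quasi-likelihood method (1409 of 14034 genes) and 0 with only the 2 groups compared (0.952%), and in PCa against PIN the count of 1 became 9, 4 and 0 under the same settings (14.1%, 7.4% and 2.81% of all tested genes). Upper-quartile normalization, no filter, filterByExpr and limma-trend gave 2 or 3 members against WT (5.01% to 9.43% of all tested genes) and 1 against PIN (3.12% to 7.13%). Upper-quartile normalization lost *Serpinh1*, and limma-trend lost *Serpinb6b* and called *Serpinb1a*, and called *Serpinb6c* against PIN. With 1 library left out, the counts ran from 0 to 0, from 0 to 5 and from 0 to 5 in the 3 comparisons. Without WT 1, WT 3, PIN 1 or PIN 3 they were 0 in both comparisons with PCa (2.48% to 4.52% and 0.557% to 3.53% of all tested genes), without PIN 2 they were 3 and 0 (5.2% and 0.957%), and without WT 2 they were 2 and 1 (7.3% and 7.81%). They came to 5 and 5 without PCa 1 (18.2% and 16.6% of all tested genes) and to 4 and 3 without PCa 2 (10.1% and 7.05%), with the lone PCa library assumed to vary like the other groups. *Serpinh1* and *Serpinb6b* were the only members called against WT without PCa 1 and without PCa 2, respectively, among the 3 called with all libraries. *Serpinb9* turned to -1.26 against WT and -1.65 against PIN without PCa 1 and stood at 4.33 and 3.95 without PCa 2. No other log2 fold change that was followed over the alternatives changed sign. That of *Klk1b26* in PCa against PIN was not among those followed. The labels do not say whether replicate numbers pair the samples. Residual correlations ran from -0.0562 to 0.284 for samples with the same number and from -0.284 to 0.164 for the others. The residuals of the 2 PCa libraries mirror each other, so these values cannot decide whether the numbers pair samples. The replicate block gave 0 called members in all 3 comparisons (0%, 2.94% and 1.08% of all tested genes), with adjusted p-values against WT of 0.0807 for *Serpinb6b*, 0.0618 for *Serpinb6c* and 0.0586 for *Serpinh1* in edgeR, and with it the log2 fold change of *Klk1b24* in PCa against PIN was -0.32 (limma-trend -1.10). What caused the differences between settings was not tested. Depth limits the 47 members that never exceeded 10 counts, 11 of them without any, and the 2 tumors limit every comparison with PCa.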
